A study of Mus musculus with 6 samples.

Results

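The genes described here are 34 genes of glucose uptake, glycolysis and the response to low oxygen, chosen as a fixed list of symbols in a table of 53797 genes from RNA sequencing of MLO-Y4 cells. Of the 34 genes, 22 act in glucose uptake, glycolysis or its control, and 12 sense oxygen or are induced by hypoxia. MLO-Y4 cells come from mouse bone and resemble osteocytes, the cells buried in bone matrix that sense mechanical load. The 6 samples were 3 LIPUS-treated cultures and 3 untreated control cultures of this single line, kept in the same medium with serum. LIPUS, a pulsed ultrasound of low intensity, was given for 20 min at 1.5 MHz and 30 mW/cm2, and the methods place RNA extraction 30 min after its end. In the methods, treated and control wells lay on the same plate, with the transducers under the control wells unplugged.

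Glycolysis turns glucose into pyruvate and lactate through a fixed order of enzymes, and its flux is set mainly by glucose uptake, hexokinase, phosphofructokinase and the enzymes that control them. Under low oxygen the prolyl hydroxylases of the Egln family no longer mark the alpha subunit of hypoxia-inducible factor (HIF) for degradation, and HIF then binds a short core motif in many promoters and raises the transcription of glycolytic and other genes. Osteocytes lie inside a mineralised matrix where the oxygen supply is limited.

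The deposited level of a gene is its FPKM, which the paper defines as fragments per length of exon and per number of mapped reads. How the libraries were scaled against each other is not given in the sources used here. A single pooled FPKM per gene was given for LIPUS and another for Control. Values per culture, and with them an SD or a test across replicates, were therefore not computed here, and the table holds no read count per library. In the study a control culture is described as standing apart from the other control cultures, and the pooled Control values include it, so results without it could not be given. The paper proposes that LIPUS leaking into control wells of the shared plate may have led to this variation, which was not tested here. A difference between the groups is given as log2((LIPUS FPKM + 1)/(Control FPKM + 1)), called the log2 fold change, and is set beside the share of all genes that lie as far apart. A gene was counted as past 1.5-fold when this ratio, with its pseudocount of 1 FPKM, was at least 1.5 in either direction. Of all genes, 11999 had an FPKM of at least 1 in either group, and 13.5% of these were past 1.5-fold, 6.7% higher and 6.79% lower with LIPUS. The share depended on the level, with 22.2% (10.8% higher and 11.4% lower) among genes whose higher FPKM lay from 1 to 10, 7.56% (3.85% and 3.71%) from 10 to 100 and 5.93% (3.4% and 2.53%) above 100. Of the osteocyte markers, Gja1 had 176 FPKM in control and 170 in LIPUS-treated cells, Pdpn 295 and 402, and Cd44 200 and 212. Mepe, Sost and Fgf23 were listed at 0 in both groups, and Phex at 0 and 0.190 FPKM. The osteocyte label was thus met only in part. Of the 10 osteocyte markers 6 reached 1 FPKM, Bglap only through LIPUS (listed at 0 in control cells and at 1.58 FPKM). Of these, Bglap and Dmp1 (3.04 and 7.65 FPKM) were past 1.5-fold higher. The summed FPKM of the list was 1567 and 1524, of which Col1a1 alone had 891 and 731. The osteoblast list had 4838 and 4366 FPKM in sum, of which Spp1 alone had 4514 and 4158. Of its 4 genes at 1 FPKM or more, 2 were past 1.5-fold lower, Runx2 at 24.4 and 14.8 and Alpl at 293 and 190. Of the markers of other cells, 4 of 5 blood cell markers, 3 of 4 endothelial and 3 of 4 chondrocyte markers were listed at 0 in both groups. The remaining chondrocyte marker, Col2a1, had 8.76 FPKM in control and 7.51 in LIPUS-treated cells, and the remaining endothelial marker, Pecam1, 0.496 and 0. The summed FPKM of the blood cell list was 5.32 in control and 1.72 in LIPUS-treated cells, all of it Cd68. That of the adipocyte list was 72.1 and 54.4, with Fabp4 lower at 52.3 and 30.4 and Pparg higher at 19.2 and 23.8. Cd68 and Fabp4 were past 1.5-fold lower. All cultures were of a single line, and the source of these marker transcripts was not tested. In bulk RNA fewer cells with a transcript cannot be told apart from less of it per cell.

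Of the 34 genes, 29 had an FPKM of at least 1 in either group, and 4 of these were past 1.5-fold, 1 higher and 3 lower with LIPUS. This is 13.8% of the 29 genes, close to the 13.5% of all genes, with 3.45% higher beside 6.7% and 10.3% lower beside 6.79%. Car9 was higher, and Pfkfb4, Pdk1 and Cited2 were lower. At a ratio of at least 5 to 4 there were 7 of 29 genes (24.1%), 3 higher and 4 lower, beside 32.2% of all genes (15.8% and 16.3%), and the additions were Slc2a1, Bnip3 and Ndrg1. The 5 genes under 1 FPKM were Aldoc, Ldhb, Slc16a3, Egln3 and Ankrd37. Median log2 fold changes were 0.06 for the 29 genes, 0.01 for the 19 glycolytic genes, 0.21 for the 10 hypoxia genes and -0.00038 for all genes.

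**Figure D1:**
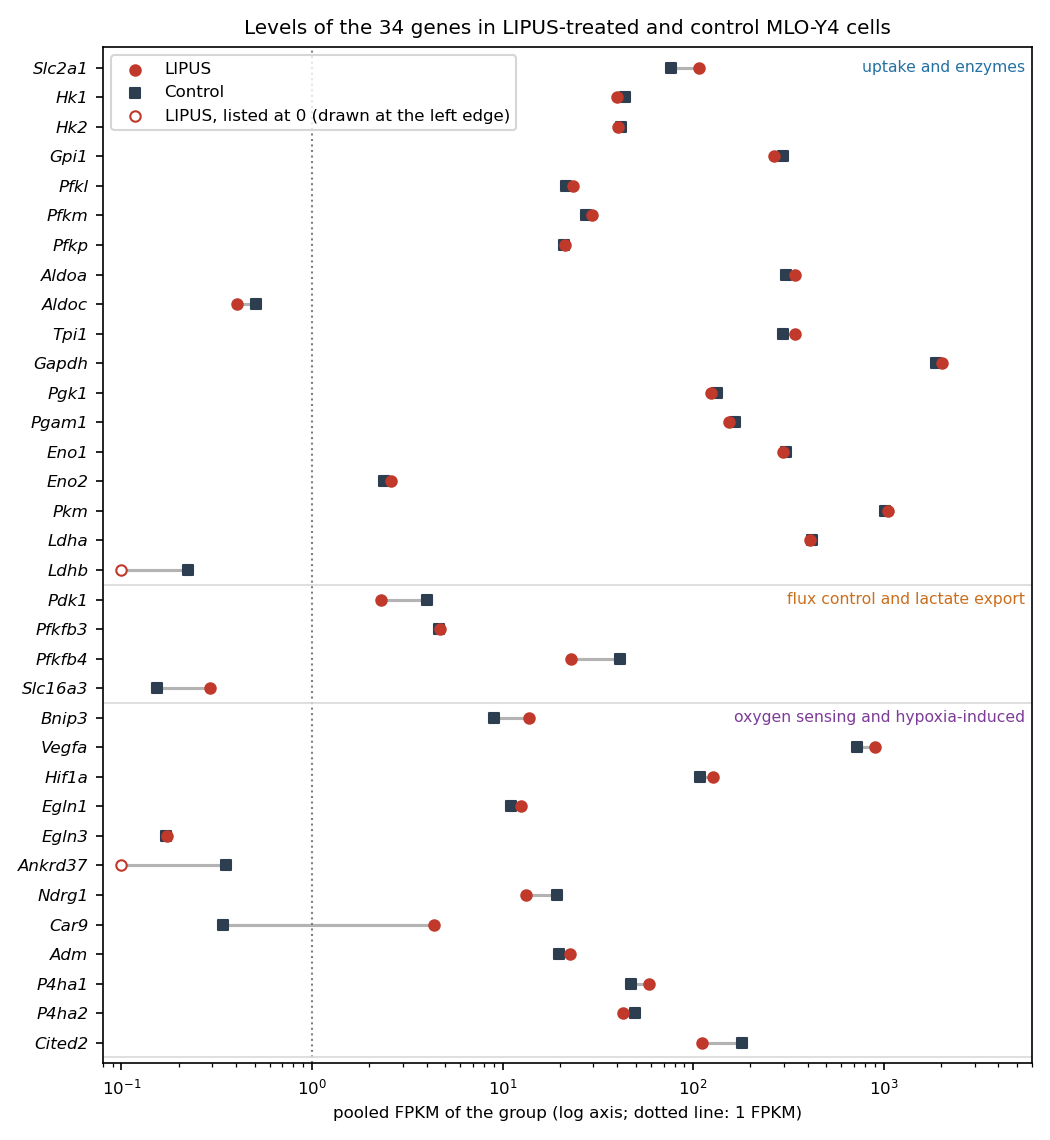
Pooled FPKM of each of the 34 genes (log axis) in LIPUS-treated cells (red circles) and control cells (dark squares), in pathway order. Open circles at the left edge stand for genes listed at 0 with LIPUS, and their place on the axis is arbitrary. Levels run from under 1 FPKM to 2016 FPKM for Gapdh, and for most genes the symbols of the groups nearly touch. Those of Car9, Slc16a3, Pfkfb4, Pdk1 and Cited2 stand apart, as do those of Ankrd37 and Ldhb, listed at 0 with LIPUS.

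The promoter windows of the 4 genes past 1.5-fold are shown with those of Bnip3 and Slc2a1, the next highest, since their levels are those the comparison turns on and the HIF core motif is the sequence through which HIF acts on its targets. Each window runs from 250 bases before to 50 bases after a RefSeq start site (GRCm38.p6), so it covers the proximal promoter and the start of the first exon. Windows were found for 33 of the 34 genes. Capitals mark each match to ACGTG or GCGTG on either strand, so that a match on the other strand reads CACGT or CACGC, and CACGTG is a match on both strands. The windows are chr4:43506776-43507075 on the plus strand for Car9, chr10:17722978-17723277 (plus) for Cited2, chr9:108991652-108991951 (plus) for Pfkfb4, chr2:71872974-71873273 (plus) for the upstream window of Pdk1, chr7:138909457-138909756 (minus) for Bnip3 and chr4:119108495-119108794 (plus) for Slc2a1.
Car9: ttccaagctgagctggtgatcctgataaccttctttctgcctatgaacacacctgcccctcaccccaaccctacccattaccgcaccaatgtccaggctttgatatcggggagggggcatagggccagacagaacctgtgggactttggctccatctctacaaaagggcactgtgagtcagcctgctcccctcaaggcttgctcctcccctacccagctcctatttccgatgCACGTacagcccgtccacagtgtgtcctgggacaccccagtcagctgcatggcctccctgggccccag
Cited2: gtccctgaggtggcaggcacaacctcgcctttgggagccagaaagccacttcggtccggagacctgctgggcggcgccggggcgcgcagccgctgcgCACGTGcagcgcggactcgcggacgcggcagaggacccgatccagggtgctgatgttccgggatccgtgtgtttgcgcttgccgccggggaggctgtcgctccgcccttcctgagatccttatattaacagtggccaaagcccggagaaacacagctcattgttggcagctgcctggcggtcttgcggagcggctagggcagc
Pfkfb4: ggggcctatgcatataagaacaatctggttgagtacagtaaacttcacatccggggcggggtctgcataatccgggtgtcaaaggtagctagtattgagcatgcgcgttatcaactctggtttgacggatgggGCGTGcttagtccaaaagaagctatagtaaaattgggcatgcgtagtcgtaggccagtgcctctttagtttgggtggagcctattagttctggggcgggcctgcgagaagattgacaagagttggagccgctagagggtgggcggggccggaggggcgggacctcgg
Pdk1: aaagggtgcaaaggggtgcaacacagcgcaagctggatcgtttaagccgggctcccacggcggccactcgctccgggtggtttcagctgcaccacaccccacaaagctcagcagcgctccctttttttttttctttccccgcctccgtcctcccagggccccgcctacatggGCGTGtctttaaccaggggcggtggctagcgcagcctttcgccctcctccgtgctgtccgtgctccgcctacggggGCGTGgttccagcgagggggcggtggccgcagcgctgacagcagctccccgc
Bnip3: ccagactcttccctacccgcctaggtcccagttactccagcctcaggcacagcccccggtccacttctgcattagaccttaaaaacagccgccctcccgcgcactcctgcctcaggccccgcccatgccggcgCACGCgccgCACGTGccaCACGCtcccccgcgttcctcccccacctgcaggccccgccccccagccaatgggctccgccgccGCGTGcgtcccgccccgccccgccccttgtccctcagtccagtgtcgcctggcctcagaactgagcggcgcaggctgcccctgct
Slc2a1: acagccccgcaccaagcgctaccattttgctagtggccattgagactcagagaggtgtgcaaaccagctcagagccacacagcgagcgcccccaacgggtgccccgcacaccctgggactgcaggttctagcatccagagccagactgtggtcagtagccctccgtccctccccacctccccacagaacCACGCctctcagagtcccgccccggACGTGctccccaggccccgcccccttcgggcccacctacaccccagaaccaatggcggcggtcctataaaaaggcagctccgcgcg

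Car9 holds a single match, at position -18 counted from the start site, and Pfkfb4 a single match at -117. Cited2 holds a CACGTG at -153, the E-box that also contains ACGTG on each strand. Bnip3 has 5 matches, among them a CACGTG at -108, while the upstream window of Pdk1 has 2 and that of Slc2a1 has 2. The downstream window of Pdk1, not printed here, holds no match. Genes that were higher and genes that were lower with LIPUS both carried the motif, but so did 30 of the 33 genes with a window. Among all genes with a window the share was 46.7%. A link between the motif and the direction of a difference was not tested.

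Over the whole list, 30 of the 33 genes with a window held ACGTG or GCGTG in at least 1 window, which was 19 of 22 glycolytic genes and 11 of 11 hypoxia genes. Of all genes with a window, 46.7% held either motif, and counted by window the shares were 80.9% of the 47 windows of the list and 43.8% of all 32851 windows. The windows of the list were also richer in G and C, with a median of 62.0% against 52.7% over all windows. ACGTG alone was in 55.3% of the list's windows and 19.6% of all windows, and GCGTG in 55.3% and 32.4%. Ldha, which makes lactate from pyruvate, had the most matches, 9 over 2 windows, including CACGTG at -145 and -48. Gpi1, Tpi1 and Eno2 had none of these letters in their windows. The E-box CACGTG was found in Pfkm, Ldha, Pfkfb3, Bnip3, Hif1a and Cited2, or 12.8% of the list's windows beside 7.15% of all windows. The longer EGR motif GCGTGGGCG, which contains GCGTG, was only in Pfkp among the list, beside 0.612% of all windows. The EGR motif GCGGGGGCG was in no window of the list and in 2.91% of all windows, and the cyclic AMP response element TGACGTCA was in Ldha alone, beside 1.79% of all windows. A match describes letters only and shows no binding.

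**Figure D2:**
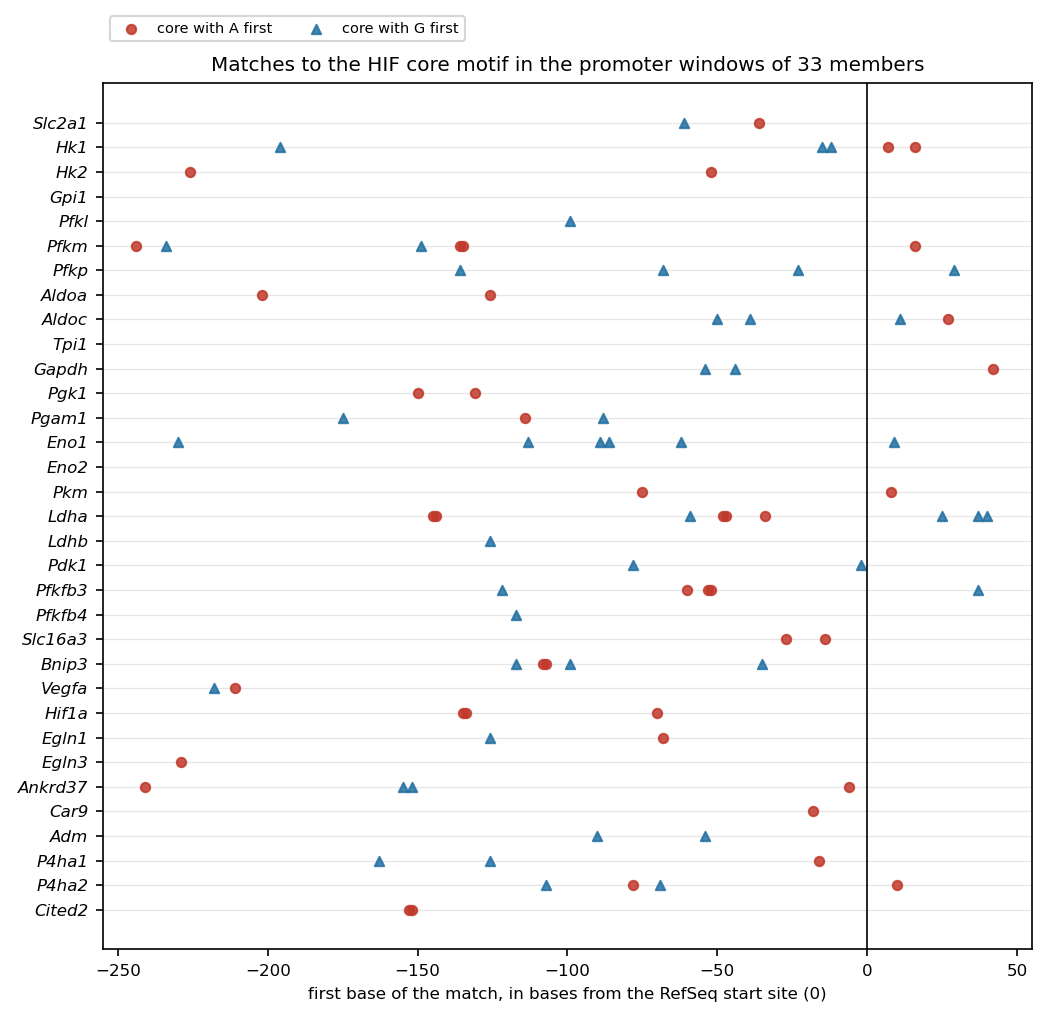
First base of each match to the HIF core motif (red circles for ACGTG, blue triangles for GCGTG, either strand) against the distance from the RefSeq start site in bases, with all windows of a gene on the same line. Of the 33 genes 30 hold at least 1 match, and the lines of Gpi1, Tpi1 and Eno2 are empty.

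Among the genes that carry glucose into the cell Slc2a1 was by far the most abundant, and it made up 95.7% (control) and 94.9% (LIPUS) of the summed FPKM of the 4 glucose transporter genes examined. Slc2a1 (chromosome 4 of GRCm38 from 119108711 to 119137983, plus strand) had 76.9 FPKM in control and 108 in LIPUS-treated cells, a log2 fold change of 0.48. This was the largest log2 difference of the 16 genes of uptake and enzymes on the list at 1 FPKM or more, and it lay under 1.5-fold. Slc2a3 had 3.42 and 4.89 FPKM, and Slc2a4 was listed at 0 in control cells and at 0.890 FPKM with LIPUS.

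The enzymes of glycolysis themselves were close in both groups, and 0 of the 16 genes of uptake and enzymes at 1 FPKM or more were past 1.5-fold, beside 7.56% of all genes from 10 to 100 FPKM and 5.93% above 100, with log2 fold changes from -0.16 to 0.48. Their levels differed by much more between steps than between groups. Gapdh, the dehydrogenase in the middle of the pathway, had 1883 FPKM in control and 2016 in LIPUS-treated cells and ranked 28 and 27 among all genes. Pkm, the last enzyme before pyruvate, had 1014 and 1058 FPKM. At the other end, the 3 phosphofructokinase genes together had 70.1 and 74.0 FPKM and the hexokinases 86.2 and 79.9 FPKM, and together with Slc2a1 these entry steps had the lowest summed FPKM of the pathway in both groups. The summed FPKM of the 18 genes of uptake and enzymes was 5062 in control and 5277 in LIPUS-treated cells, or 0.847% and 0.856% of the FPKM of all genes.

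Hexokinase, which traps glucose in the cell, was split almost evenly between Hk1 (44.1 FPKM in control and 39.8 in LIPUS-treated cells) and Hk2 (42.0 and 40.1 FPKM). The next enzyme, the isomerase Gpi1, had 298 and 266 FPKM, the lowest log2 fold change of the 16 genes of uptake and enzymes at 1 FPKM or more, at -0.16. Phosphofructokinase, the committed step, came from all 3 of its genes, with Pfkm at 27.5 and 29.3 FPKM, Pfkl at 21.5 and 23.5 and Pfkp at 21.1 and 21.2. The order of these genes was the same in both groups, with Pfkl and Pfkp almost level in control cells.

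Of the enzymes that split and rearrange the sugar, Aldoa had 306 FPKM in control and 344 in LIPUS-treated cells (log2 fold change 0.17), and Tpi1, which interconverts the triose phosphates, 298 and 344 (0.21). Aldoc, the brain form of aldolase, was at 0.510 and 0.406 FPKM, so Aldoa made up at least 99.8% of the aldolase FPKM. A further row of the table also carries the symbol Aldoa under another identifier (ENSMUSG00000114515), which GENCODE places on chromosome 7 from 126800790 to 126809108 (minus strand), and it had 2.86 and 1.13 FPKM (log2 fold change -0.86). The later enzymes Pgk1 (134 and 124 FPKM), Pgam1 (166 and 155 FPKM) and Eno1 (307 and 296 FPKM) were each slightly lower with LIPUS, with log2 fold changes from -0.11 to -0.05. The step from glyceraldehyde to pyruvate thus held differences of both signs, all inside the range of -0.58 to 0.64 that held 95% of genes above 100 FPKM.

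Eno2, the neuronal enolase, was at 2.38 FPKM in control and 2.61 in LIPUS-treated cells. Eno3, the muscle enolase and no member of the list, had 105 and 91.2 FPKM, or 25.3% and 23.4% of the enolase FPKM. Lactate dehydrogenase came almost wholly from Ldha, at 420 and 411 FPKM, while Ldhb, the heart form, had 0.224 FPKM in control cells and was listed at 0 with LIPUS.

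Several of these enzymes have processed pseudogenes, and reads that match a copy can be assigned to it. Of the 50-base words in the annotated transcripts of a gene, the share that also occurred in a transcript of another gene was 53.9% for Pgk1, 36.2% for Pgam1, 26.0% for Eno1, 25.8% for Pkm and 24.7% for Gapdh, where 213 pseudogenes shared such words. It was 20.99% for Ldhb and 16.5% for Bnip3, and 0 for Slc2a1, Hk1, Hk2, Pdk1, Pfkfb4, Car9 and Cited2. The values of the first 5 genes are therefore uncertain as absolute levels.

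**Figure D3:**
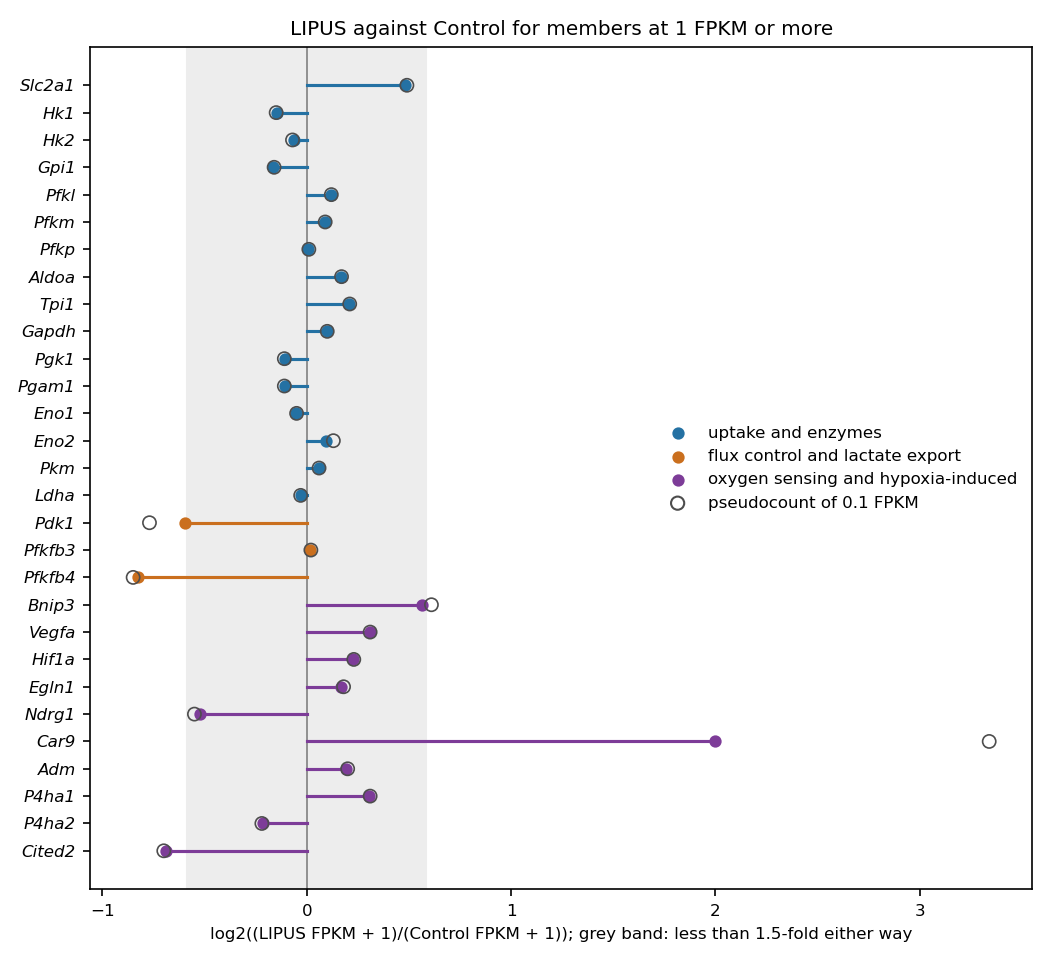
Log2 fold change of LIPUS over Control for the 29 genes at 1 FPKM or more in either group (filled points, coloured by role), with open circles for a pseudocount of 0.1 FPKM and a grey band for less than 1.5-fold either way. The enzymes stay inside the band, Pfkfb4, Pdk1 and Cited2 lie left of it, and Car9 lies right of it at 2.0, or 3.34 with the smaller pseudocount.

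Several proteins outside the main chain adjust the flux into and out of glycolysis, and of the 4 on the list 3 were at 1 FPKM or more and 2 of these were past 1.5-fold, both lower, beside 13.5% of all genes either way and 22.2% of those from 1 to 10 FPKM, where Pdk1 and Pfkfb3 lay. Pfkfb4 (chromosome 9 from 108991778 to 109032228, plus strand) encodes a bifunctional enzyme that makes and breaks down the main activator of phosphofructokinase. It had 41.5 FPKM in control and 23.0 in LIPUS-treated cells, 1.81 times less, with a log2 fold change of -0.83. Of all genes whose higher FPKM lay from 10 to 100, 95% had a log2 fold change between -0.68 and 0.69, so Pfkfb4 was outside the range of most genes at its level.

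Pfkfb4 was the most abundant of its family in both groups, at 81.0% (control) and 62.2% (LIPUS) of the summed FPKM. Pfkfb3, the form that mostly favours synthesis of the activator, was at 4.62 and 4.68 FPKM. Pfkfb2 had 3.95 FPKM in control and 6.88 in LIPUS-treated cells (log2 fold change 0.67), and Pfkfb1 had 1.19 and 2.39 FPKM (0.63). The family as a whole had 51.2 and 36.9 FPKM, so the lower Pfkfb4 exceeded the higher Pfkfb1 and Pfkfb2 in amount. Among the families whose shares were computed, the share of Pfkfb4 differed most between the groups, followed by that of Pfkfb2, which was 10.9 percentage points higher with LIPUS.

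Pdk1 (chromosome 2 from 71873224 to 71903858, plus strand) encodes a kinase that inactivates pyruvate dehydrogenase, and it is a known HIF target. It had 4.01 FPKM in control and 2.31 in LIPUS-treated cells, a log2 fold change of -0.60, just past 1.5-fold and inside the range of -1.16 to 1.16 that held 95% of genes from 1 to 10 FPKM. Pdk3 was the most abundant of these kinases at 12.5 and 14.7 FPKM, Pdk2 had 5.19 and 4.80 FPKM and Pdk4 1.96 and 3.30 FPKM. The 4 kinases together had 23.7 and 25.1 FPKM, so their sum was close in both groups while the share of Pdk1 was 16.9% in control and 9.21% in LIPUS-treated cells. Slc16a3, the lactate exporter of hypoxic cells, was at 0.154 and 0.292 FPKM, and Slc16a1, the general lactate carrier and no member of the list, at 42.5 and 35.7 FPKM.

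**Figure D4:**
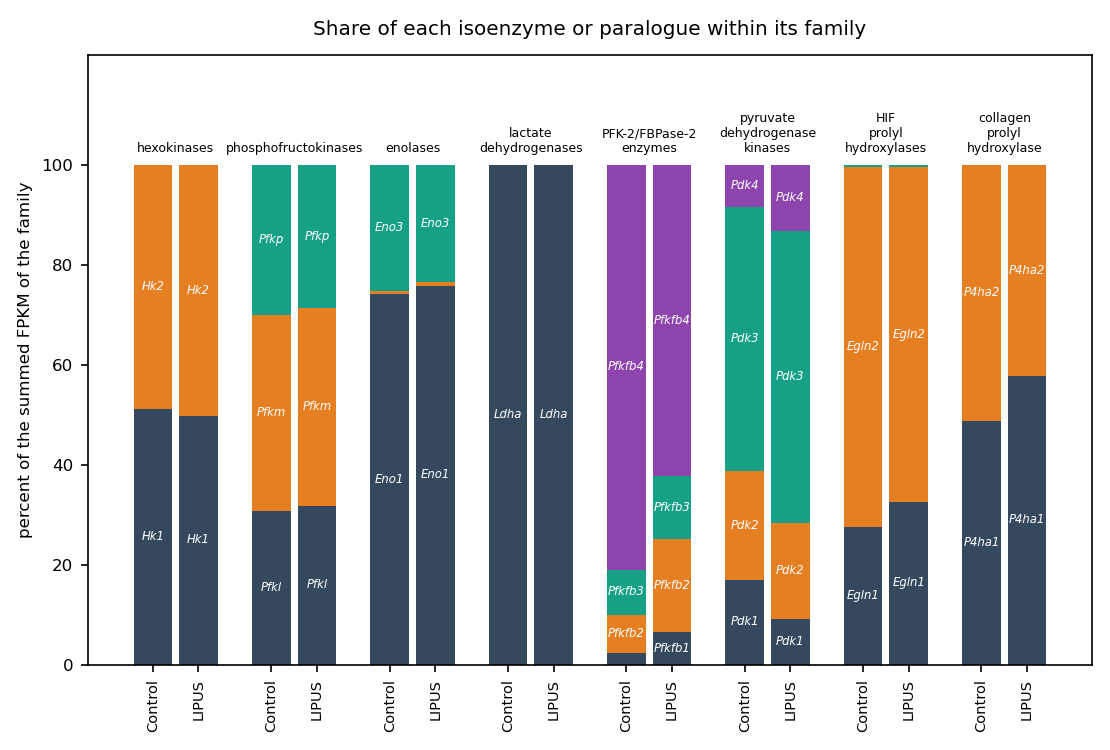
Share of each gene in the summed FPKM of its family, in percent, for 8 families with control and LIPUS-treated cells side by side. Hk1 and Hk2 divide the hexokinases almost evenly and Ldha fills the lactate dehydrogenases, while Pfkfb4 takes up 81.0% of its family in control and 62.2% in LIPUS-treated cells.

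In the oxygen-sensing machinery the groups were close. Hif1a, the oxygen-labile subunit of HIF, had 109 FPKM in control and 127 in LIPUS-treated cells, a log2 fold change of 0.22, and made up 99.8% of the FPKM of the 3 alpha subunit genes in both groups. Epas1, which encodes the alternative subunit, was at 0.243 and 0.253 FPKM. A protein-coding annotation on the same strand that shares 148 exonic bases with Hif1a, Gm49321, had 0.188 and 6.56 FPKM, and reads of the shared bases could belong to either. Egln1, the main HIF prolyl hydroxylase, had 11.1 and 12.5 FPKM. Egln2 was more abundant at 28.8 and 25.8 FPKM, while Egln3, itself a strongly hypoxia-induced gene, was at 0.172 and 0.173 FPKM.

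Cited2 (chromosome 10 from 17723218 to 17725674, plus strand), a HIF-induced protein that competes with HIF for the coactivators Ep300 and Crebbp and so restrains it, had 180 FPKM in control and 111 in LIPUS-treated cells. It was 1.62 times lower, with a log2 fold change of -0.69, outside the range of -0.58 to 0.64 that held 95% of genes above 100 FPKM. Only 2.53% of the 1028 genes at that level were past 1.5-fold lower. Of the coactivators that it binds, Ep300 had 15.7 and 10.9 FPKM and Crebbp 7.63 and 7.37 FPKM. Its relative Cited4 was listed at 0 in both groups and Cited1 at 0 and 0.296 FPKM, so Cited2 was nearly all of the family.

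Car9 (chromosome 4 from 43506966 to 43513729, plus strand), a membrane carbonic anhydrase that is among the strongest HIF targets in many cells, went the other way. It had 0.340 FPKM in control and 4.36 in LIPUS-treated cells, a ratio of 12.8 without a pseudocount and a log2 fold change of 2.0 with it. This was the largest difference of the list and lay outside the range of 95% of genes from 1 to 10 FPKM, but its control value lay under 1 FPKM, and values of single libraries were not analysed here. An antisense gene, Gm12454, shares 214 exonic bases with Car9 and had 4.27 FPKM in control and 6.89 in LIPUS-treated cells.

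Apart from Cited2 and Car9, none of the 12 genes of the hypoxia group was past 1.5-fold, and their differences had both signs. Vegfa, the angiogenic growth factor, was the most abundant of them at 728 FPKM in control and 901 in LIPUS-treated cells (log2 fold change 0.31), and ranked 117 and 93 among all genes. Bnip3, a mitophagy receptor, had 8.98 and 13.7 FPKM (0.56), a ratio of 1.53 without a pseudocount and just under 1.5-fold with it. It overlaps an antisense gene, Gm45507, at 13.2 and 14.2 FPKM, over 504 exonic bases. Adm, which encodes the vasodilator adrenomedullin, had 19.7 and 22.7 FPKM (0.19). P4ha1, a catalytic subunit of the collagen prolyl hydroxylase, had 47.2 and 58.5 FPKM (0.30), whereas its relative P4ha2 had 49.8 and 42.8 FPKM (-0.21), so that the more abundant of the pair was P4ha2 in control cells and P4ha1 in LIPUS-treated cells.

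Ndrg1, a stress gene that is a classical hypoxia marker, was lower with LIPUS, at 19.4 FPKM in control and 13.2 in LIPUS-treated cells (log2 fold change -0.52). Its antisense gene Gm17035 had 15.0 and 4.31 FPKM and shares 419 exonic bases with it, and although the libraries were stranded, the use of strand in the FPKM is not stated, so reads of such a stretch in Ndrg1, Car9 or Bnip3 could belong to either gene. Ankrd37, a small HIF target, had 0.356 FPKM in control cells and was listed at 0 with LIPUS. Of the 10 genes of the hypoxia group at 1 FPKM or more, 7 had a log2 fold change above 0 and 3 below, and 1 in each direction was past 1.5-fold, beside 6.7% of all genes higher and 6.79% lower.

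**Figure D5:**
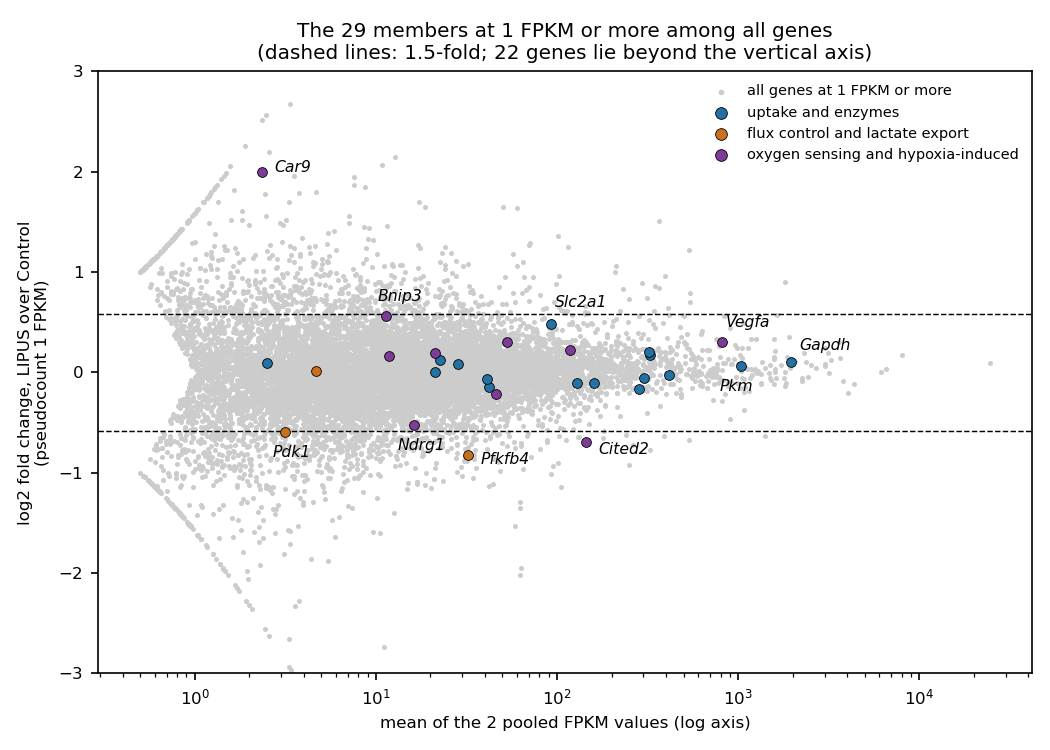
Log2 fold change against the mean of both pooled FPKM values (log axis) for all 11999 genes at 1 FPKM or more (grey) and the 29 genes of the list (coloured by role), with dashed lines at 1.5-fold and 22 genes beyond the vertical axis. Most of the list lies inside the grey cloud near 0, and Cited2 and Pfkfb4 lie at its lower edge for their level.

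Further genes of the same pathways were examined from a list of 99 symbols, of which 67 had an FPKM of at least 1 in either group. Of these, 4 (5.97%) were past 1.5-fold, all higher with LIPUS, beside 13.5% of all genes. Arnt2 among them reached 1 FPKM only with LIPUS, as did Car9 among the 34 genes, so the minimum level itself favours a higher value for these genes. At a ratio of at least 5 to 4, 13 of the 67 were higher and 9 lower (32.8%, beside 32.2% of all genes). The 4 genes past 1.5-fold were Pfkfb1 and Pfkfb2, Pygb, an isoform of glycogen phosphorylase (11.1 FPKM in control and 17.4 in LIPUS-treated cells, log2 fold change 0.61), and Arnt2, an alternative partner of the HIF alpha subunits (0.237 and 1.43 FPKM, 0.98). Of the 48 further genes of carbohydrate metabolism, 29 were at 1 FPKM or more, with a median log2 fold change of -0.05. Of the 51 further genes of the HIF pathway, 38 were, with a median of 0.08. Of the factors that degrade, inhibit or partner Hif1a, Vhl had 10.1 FPKM in each group, Arnt 22.2 in control and 27.0 in LIPUS-treated cells, Hif1an 5.02 and 6.29 FPKM and Elob 255 and 323 FPKM.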

How the data were processed

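Messenger RNA (stranded libraries) of 3 LIPUS-treated and 3 control cultures of MLO-Y4 cells was sequenced. Reads were trimmed by the authors (Trimmomatic 0.36) and mapped to GRCm38 (TopHat2 2.1.0, Bowtie2 2.2.6.0), and they deposited FPKM values made with Cufflinks (version 2.1.1 in the submitters' processing notes, a later release in the methods) and Cuffdiff with Ensembl transcripts. Each FPKM is pooled over the libraries of a group, so no SD was computed. The methods state a nominal number of reads per sample, but the table holds no count per library from which the precision of a value could be computed, and whether the FPKM used the strand is not given in the sources used here. The same table holds the authors' own fold changes, test statistics, p-values and calls, which were not used.

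Groups were taken from the sample titles and the names in the table. Log2 fold changes were computed from the deposited FPKM with a pseudocount of 1, for genes with an FPKM of at least 1 in either group. The 34 genes matched 35 rows by symbol, and Aldoa was taken from ENSMUSG00000030695. No test was run, since each group had a single pooled value. All 34 genes are named, and of the other pathway genes those past 1.5-fold with an FPKM of at least 1, while other genes named were chosen after their values were seen. The members, lists and thresholds were chosen with earlier results of these data known. Positions, overlaps and shared 50-base words come from GENCODE M21 (GRCm38), and promoter windows from RefSeq (GRCm38.p6). Python 3.11.15, numpy 2.4.6, pandas 2.3.3 and matplotlib 3.10.9 were used, and the fold step was tested on simulated data. That test held only genes at 10 FPKM or more in both groups and changes well beyond 1.5-fold. It therefore does not cover calls at lower levels or near 1.5-fold. Other pseudocounts, minimum levels, scalings and folds were tried.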

Additional observations from a re-analysis of the deposited data

How the results depend on the processing

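The 4 genes of the list past 1.5-fold kept their direction and stayed past it under the other pseudocounts (0.1 FPKM and none) and the scalings tried (to a sum of 1000000, centred on the median, by the upper quartile), and only Pfkp, Pfkfb3 and Egln3, all near 0, changed sign among the 34 genes. With a minimum of 10 FPKM, 1 of 16 glycolytic genes (Pfkfb4), 1 of 9 hypoxia genes (Cited2) and 1 of 48 further pathway genes (Pygb) were past 1.5-fold, beside 7.32% of all genes, since Car9, Pdk1 and the other low genes were left out. At 2-fold the counts were 0, 1 (Car9) and 0, beside 4.24% of all genes, and at a ratio of at least 5 to 4 the hypoxia genes had 4 and the further pathway genes 22 (13 higher and 9 lower), beside 32.2% of all genes. With a pseudocount of 0.1 FPKM or none, Bnip3 and the further gene Pdk4 were also past 1.5-fold, beside 18.2% and 17.3% of all genes. Without a minimum FPKM Slc2a4 was (12.7% of all genes), and after rescaling to a common sum Pygb was not (15.5%). Centring on the median moved values little, since the median log2 fold change of all genes was already -0.00038. The median of the glycolytic genes was -0.01 without a minimum FPKM, -0.01 at a minimum of 10, -0.04 after rescaling to a common sum and 0 after scaling by the upper quartile. The median of the hypoxia genes was 0.22 without a pseudocount, 0.18 without a minimum FPKM, 0.19 at a minimum of 10 and 0.17 after rescaling to a common sum. Counting the further Aldoa row, an alternative chosen after seeing the data, gave a glycolytic median of -0.01 and 3 genes past 1.5-fold. No paired analysis was possible because the table holds a single pooled value per group, and for the same reason no culture could be left out. Without read counts per library the precision of values under 1 FPKM, the control value of Car9 included, could not be given.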

Other observations

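Among the further HIF pathway genes, the following were chosen after their values were seen. Hmox1, the stress-induced haem oxygenase, had 96.7 FPKM in control and 144 in LIPUS-treated cells (log2 fold change 0.57), and Bhlhe40, a transcriptional repressor that HIF induces, had 113 and 152 FPKM (0.43). Angptl4, a secreted inhibitor of lipoprotein lipase, had 56.2 and 42.5 FPKM (-0.40). None of these 3 genes was past 1.5-fold with the pseudocount of 1 FPKM.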
